A study of Homo sapiens with 6 samples.

Results

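The kinases of the p38 and JNK branches of MAPK signaling were examined in A549 cells, a human lung adenocarcinoma line, with and without overexpression of IL17D. The members were taken by gene name from the 58735 genes of the deposited count table. They are 10 genes: the p38 kinases MAPK11, MAPK12, MAPK13 and MAPK14, the p38-activating kinases MAP2K3 and MAP2K6, the p38-activated kinases MAPKAPK2 and MAPKAPK3, and the JNK kinases MAPK8 and MAPK9. The rule that picks them is a list of gene names, which was drawn up with earlier results of these data known. RNA was sequenced from 3 libraries of cells that overexpress IL17D (IL17D group) and from 3 libraries of cells with the empty vector (control group), all grown in RPMI1640 with serum. In the study's methods the IL17D open reading frame was carried by a lentiviral vector with a human PGK promoter and a GFP cassette, and it is not stated, in the methods or in the labels, whether replicate libraries stem from separate transductions or cultures. The p-values therefore measure the spread between these libraries, which may be technical. No drug was applied to the sequenced cells.

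p38 and JNK are stress-activated protein kinases, which respond to cytokines, osmotic stress, ultraviolet light and other injury. A MAP3K phosphorylates a MAP2K, which then phosphorylates a threonine and a tyrosine in the activation loop of p38 or JNK. Active p38 in turn phosphorylates MAPKAPK2 (MK2) and MAPKAPK3 (MK3), which act on proteins that bind AU-rich mRNAs, whereas JNK is best known for phosphorylating the transcription factor JUN. These steps are changes of protein phosphorylation, and read counts measure only the amount of each mRNA. Of these kinases the study blotted p38, and reported more phosphorylated p38 in A549 cells with IL17D than in control cells. The question put to the data was whether the kinases of the pathway differed in mRNA between the groups. A further question was whether the balance between paralogues differed within each kinase family.

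The motif in the activation loop differs between p38 and JNK, so the codons around it are shown here. They were cut from the main coding transcript of each gene in GENCODE release 29 (GRCh38). In the 4 p38 genes the capitals mark the codons of the Thr-Gly-Tyr motif, and in the JNK genes those of Thr-Pro-Tyr, each in 1 coding exon.
MAPK14 (p38 alpha, chr6:36075869-36075919, + strand, exon 7): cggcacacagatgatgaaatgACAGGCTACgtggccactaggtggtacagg
MAPK11 (p38 beta, chr22:50266977-50267027, - strand, exon 7): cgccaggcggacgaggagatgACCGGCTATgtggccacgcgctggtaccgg
MAPK12 (p38 gamma, chr22:50256128-50256178, - strand, exon 7): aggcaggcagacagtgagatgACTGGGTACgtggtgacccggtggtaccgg
MAPK13 (p38 delta, chr6:36136677-36136727, + strand, exon 7): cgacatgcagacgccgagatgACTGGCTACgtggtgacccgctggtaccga
MAPK8 (JNK1, chr10:48420230-48420280, + strand, exon 5): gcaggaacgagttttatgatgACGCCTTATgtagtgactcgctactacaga
MAPK9 (JNK2, chr5:180249013-180249063, - strand, exon 6): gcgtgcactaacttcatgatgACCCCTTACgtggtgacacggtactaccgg

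The motif covers residues 180 to 182 in MAPK14, MAPK11 and MAPK13, and residues 183 to 185 in MAPK12, MAPK8 and MAPK9. Over these 51 bases, MAPK12 and MAPK13 were the most alike of the p38 genes, with 82.4% of bases identical, and MAPK13 and MAPK14 the least alike, with 70.6%. MAPK8 and MAPK9 were identical at 72.5% of bases. Each p38 stretch matched each JNK stretch at 47.1% to 60.8% of bases.

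The upstream kinases MKK3 and MKK6 are themselves switched on at a serine and a threonine in the corresponding loop, which MAP3Ks phosphorylate, and the capitals run from the codon of this serine to that of the threonine.
MAP2K3 (MKK3, chr17:21304488-21304544, + strand, exon 8): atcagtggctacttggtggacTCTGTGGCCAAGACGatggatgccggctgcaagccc
MAP2K6 (MKK6, chr17:69523576-69523632, + strand, exon 8): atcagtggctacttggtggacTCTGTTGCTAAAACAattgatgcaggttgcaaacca

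These stretches were identical at 84.2% of 57 bases, and they cover residues 218 to 222 of MKK3 and 207 to 211 of MKK6. Reads can nevertheless be told apart between the members, because few stretches of 31 bases are in common. Across all annotated transcripts, MAPKAPK2 and MAPKAPK3 share 10 such stretches, MAPK8 and MAPK9 share 4, MAPK12 shares 3 with MAPK9 and 2 with MAPK8, and no stretch is shared among the 4 p38 genes. Counting every other gene, 0 to 5.03% of the stretches of a kinase occur elsewhere, except for MAPK12, with 29%, of which HDAC10 holds the most.

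The p38 genes lie in a pair of tandem arrangements on GRCh38. MAPK14 (chr6:36027677-36111236, + strand) is followed by MAPK13 (chr6:36127809-36144524) after 16572 bases with no gene between them. MAPK11 (chr22:50263713-50270767, - strand) and MAPK12 (chr22:50245450-50261825, - strand) are 1887 bases apart, again with no gene between them. The downstream end of MAPK12 overlaps HDAC10 on the same strand over 5956 bases, and HDAC10 had 6 to 25 counts in a library against 564 to 705 for MAPK12. How reads from the overlap were assigned is not known. The low HDAC10 count therefore does not show how many of the MAPK12 counts stem from HDAC10. The other members are on chromosome 17 (MAP2K3, chr17:21284672-21315240, and MAP2K6, chr17:69414698-69553861), chromosome 1 (MAPKAPK2, chr1:206684944-206734283), chromosome 3 (MAPKAPK3, chr3:50611520-50649297), chromosome 10 (MAPK8, chr10:48306639-48439360) and chromosome 5 (MAPK9, chr5:180233143-180292099). MAPKAPK3 overlaps CISH, on the opposite strand, by 312 bases, and CISH had 17 to 43 counts in a library. The sources used here do not say whether the counting used strand.

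The libraries held 14319398 to 16521021 counts on genes, and the limit set by a count of 0 is 0.182 to 0.21 CPM per library, which covers counting error only (CPM is a gene's count scaled to a common library total with TMM factors). Replicates differed beyond sampling noise (chi-square per degree of freedom 2.16 to 3.18), so none was counted as a duplicate of another. IL17D had 18 to 34 counts in the control libraries and 26772 to 32155 in the IL17D libraries, as labelled. The epithelial keratins KRT8 and KRT18 and the oxidoreductases AKR1C1 and NQO1 were well expressed in every library (3640 counts or more), and AKR1C1 was lower in IL17D cells (log2 fold change -0.30, edgeR adjusted p = 3.304e-07). EPCAM was low, with 9 to 21 counts. CDKN2A, which is deleted in A549, had 0 counts in all 6 libraries. Of markers of other cells, PTPRC was at 0 in every library, CD68, PECAM1, VWF and COL3A1 had at most 8 counts, CD14 had 8 to 20 and COL1A1 274 to 394.

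All 10 kinases were expressed, and all passed the filter on low counts. In edgeR's quasi-likelihood test none of the 10 had an adjusted p under 0.05, where 1.58% of the 15754 tested genes did. DESeq2's Wald test and limma voom also called 0 of the 10. At an unadjusted p under 0.05, edgeR's test found 3 of the 10 kinases (MAPKAPK2, MAPK13 and MAP2K6), limma voom found 2 and DESeq2 found 1, where edgeR found 11.6% of all tested genes. With a log2 fold change above 0.2 in size as a further condition, 1 of the 10 passed (MAPK13), where 6.0% of all tested genes passed. The groups did not overlap in CPM for 3 of the 10 kinases (MAPK13, MAP2K3 and MAPK8), where this was so for 15.8% of all tested genes. The median log2 fold change of the kinases was -0.03, with 4 higher and 6 lower, and over all tested genes it was -0.00044. The median size of the log2 fold change was 0.0848 for the kinases and 0.0839 for all tested genes. Summed over the 10 kinases, the level was 454.5 ± 5.44 CPM for control and 451.8 ± 7.68 CPM for IL17D cells (SD, n = 3 each).

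**Figure D1:**
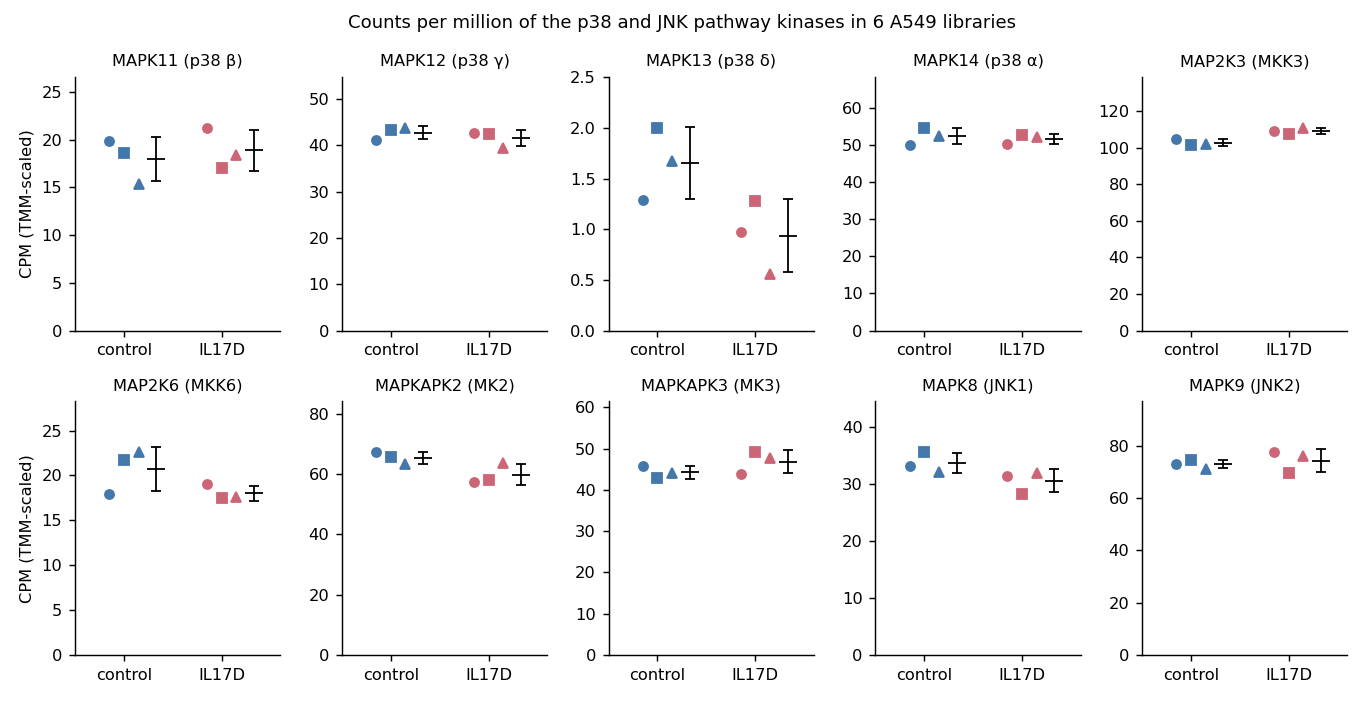
Level of each kinase in CPM, scaled by TMM (vertical axis, from 0), in the control group (blue) and the IL17D group (red); circles, squares and triangles are replicates 1, 2 and 3 of each group, and the black marks are the mean and SD of 3 libraries. The groups lie apart for MAPK13, MAP2K3 and MAPK8, and MAPK13 is the lowest of all, with 0.560 to 2.001 CPM.

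Of the p38 kinases, MAPK14 encodes p38 alpha, the broadly expressed isoform that most p38 inhibitors were made against. It had 50.1, 54.6 and 52.6 CPM in control replicates 1, 2 and 3 and 50.2, 52.7 and 52.2 CPM in IL17D replicates 1, 2 and 3. The IL17D libraries lay within the range of the control libraries. The ratio of IL17D to control was 0.987 with a 95% interval from 0.907 to 1.07 (log2 fold change -0.02, SE 0.0596, edgeR adjusted p = 0.949).

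MAPK12 encodes p38 gamma, an isoform best known from skeletal muscle. Its levels were 41.1, 43.2 and 43.8 CPM in the control libraries and 42.7, 42.5 and 39.4 CPM in the IL17D libraries, and the groups overlapped. The log2 fold change was -0.04 (SE 0.0650, edgeR adjusted p = 0.891), and the interval of the ratio was 0.889 to 1.07. MAPK11 encodes p38 beta, the closest relative of p38 alpha. It varied more between replicates, with 19.9, 18.6 and 15.4 CPM in control cells and 21.2, 16.995 and 18.4 CPM in IL17D cells. Its coefficient of variation was 12.9% in control and 11.4% in IL17D libraries, against 5.88% from counting alone. The log2 fold change was 0.07 (SE 0.105, edgeR adjusted p = 0.867), with an interval of the ratio from 0.908 to 1.22.

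MAPK13 encodes p38 delta, an isoform that is less sensitive to the common pyridinyl imidazole inhibitors than p38 alpha. It was scarce, with 21, 29 and 27 counts in the control libraries (replicates 1 to 3) against 16, 21 and 8 in the IL17D libraries. In CPM these were 1.29, 2.001 and 1.68 in control cells and 0.971, 1.27 and 0.560 in IL17D cells. The groups did not overlap, but control replicate 1 and IL17D replicate 2 differed by less than 0.02 CPM. The log2 fold change was -0.80 (SE 0.367, edgeR unadjusted p = 0.0368 and adjusted p = 0.386). Counting error alone gives a coefficient of variation of 22.2% per library at this depth, and the 95% interval of the ratio ran from 0.344 to 0.965. The unadjusted p was 0.0648 in DESeq2's Wald test. In edgeR's test it was 0.139 and 0.0760 without control replicates 2 and 3, and 0.0661 and 0.168 without IL17D replicates 1 and 3. It was under 0.05 in 6 of the 11 alternatives that tested MAPK13.

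The upstream kinases MKK3 and MKK6 both phosphorylate p38. MAP2K3 (MKK3) was the most abundant of the 10 kinases and was measured most precisely. Its levels were 104.8, 101.2 and 102.3 CPM in control cells and 109.4, 107.6 and 110.9 CPM in IL17D cells. All 3 IL17D libraries lay above all 3 control libraries. The difference was a log2 fold change of 0.09 (SE 0.0446, edgeR adjusted p = 0.457), and the interval of the ratio was 0.998 to 1.13. Without control replicate 1 the edgeR unadjusted p was 0.0445 (adjusted p = 0.479). MAP2K6 (MKK6) had 17.9, 21.7 and 22.6 CPM in control cells and 19.0, 17.5 and 17.6 CPM in IL17D cells. Control replicate 1 lay among the IL17D libraries. The log2 fold change was -0.20 (SE 0.0979, edgeR unadjusted p = 0.0498 and adjusted p = 0.431). The unadjusted p was 0.0515 with DESeq2's size factors in edgeR, 0.0615 in limma voom and 0.0907 in DESeq2's Wald test. In edgeR's test it was 0.138 without control replicate 2, 0.238 without control replicate 3, 0.115 without IL17D replicate 2 and 0.105 without IL17D replicate 3. It was under 0.05 in 3 of 12 alternatives. These were edgeR's test without control replicate 1 (0.00741), without IL17D replicate 1 (0.0388) and without a filter on low counts (0.04025).

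Of the kinases that p38 activates, MAPKAPK2 (MK2) had the smallest p of the 10. It had 67.3, 65.7 and 63.4 CPM in control cells and 57.5, 58.0 and 63.8 CPM in IL17D cells. IL17D replicate 3 lay within the control range and the other IL17D libraries below it. The log2 fold change was -0.13 (SE 0.0566, edgeR unadjusted p = 0.0235 and adjusted p = 0.327). In edgeR's test the unadjusted p was 0.0864 without control replicate 1, 0.0505 without control replicate 2, 0.110 without IL17D replicate 1 and 0.0876 without IL17D replicate 2. It was under 0.05 in 8 of 12 alternatives. MAPKAPK3 (MK3), which can act on the same substrates, had 45.8, 42.9 and 44.0 CPM in control cells and 43.8, 49.2 and 47.6 CPM in IL17D cells. The groups overlapped, with a log2 fold change of 0.08 (SE 0.0642, edgeR adjusted p = 0.698).

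The genes whose log2 CPM followed MAPKAPK2 most closely over the 6 libraries, among 9741 genes with a mean of at least 10 CPM, were SPCS1, ZBED5-AS1, CYBC1, SELENOF and RIMS3, with Pearson correlations of 0.982 to 0.996. The points share their libraries, and with 6 of them such values describe these libraries only.

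Neither of the JNK kinases passed the test. MAPK8 (JNK1) had 33.1, 35.5 and 32.1 CPM in control cells and 31.4, 28.3 and 32.0 CPM in IL17D cells. The groups did not overlap, by a margin of under 0.2 CPM between control replicate 3 and IL17D replicate 3. The log2 fold change was -0.14 (SE 0.0754, edgeR adjusted p = 0.516), with an interval of the ratio from 0.818 to 1.01. Without IL17D replicate 2 this log2 fold change was -0.08, and without control replicate 3 the edgeR unadjusted p was 0.0488 (adjusted p = 0.418). MAPK9 (JNK2) had 73.1, 74.4 and 71.2 CPM in control cells and 77.5, 69.4 and 75.9 CPM in IL17D cells, and IL17D replicate 2 lay below and the others above all control libraries. Its log2 fold change was 0.03 (SE 0.0532, edgeR adjusted p = 0.913), and it was -0.0058 without IL17D replicate 1. MAPK10, which encodes the neuronal JNK3 and is not among the 10, had 25 to 40 counts per library (edgeR adjusted p = 0.976).

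**Figure D2:**
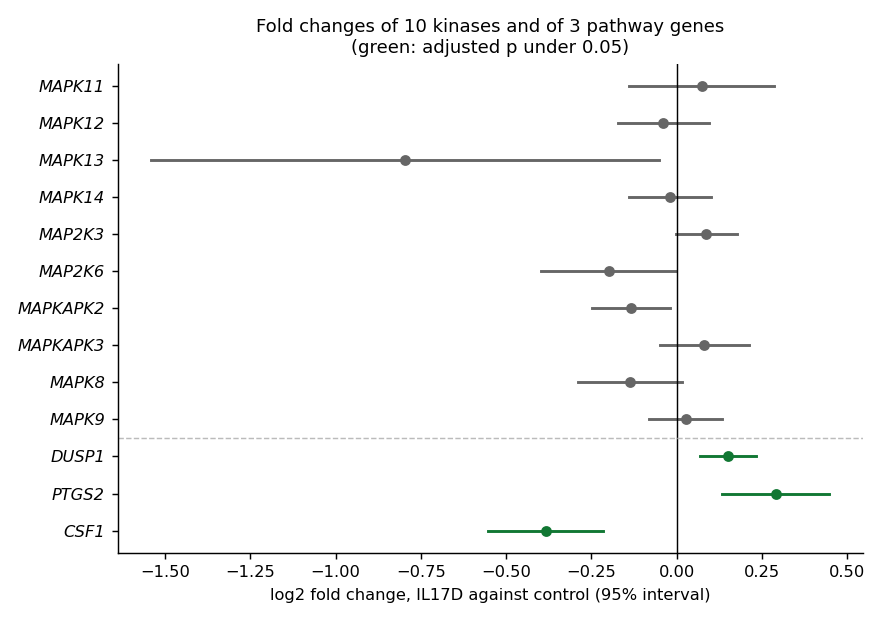
Log2 fold change of IL17D against control (horizontal axis) with its 95% interval from edgeR's quasi-likelihood test, for the 10 kinases above the dashed line and for DUSP1, PTGS2 and CSF1 below it. Genes called at an adjusted p under 0.05 are green, and none of the 10 kinases is. The interval of MAPK13 is by far the widest, from -1.54 to -0.05, and that of MAP2K3, from -0.0027 to 0.18, the narrowest of the kinases.

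Levels were compared between genes per kilobase, since longer transcripts give more reads. The order depended on the length used. The deposited gene length counts every annotated exon once, which includes retained introns and long untranslated ends (16655 bases for MAP2K6 and 9424 bases for MAPK12). The coding length of the main transcript is 1002 to 1281 bases in the 10 genes. Values per kilobase of coding length were divided by this length less 3 bases. MAP2K3 was first and MAPK13 last by every length. Per kilobase of gene length, MAP2K3 had 27.2 ± 0.492 CPM (SD, n = 3) in control cells, followed by MAPKAPK2 (15.6), MAPKAPK3 (11.3), MAPK9 (8.14), MAPK14 (7.64), MAPK11 (6.68), MAPK12 (4.53), MAPK8 (3.47), MAP2K6 (1.245) and MAPK13 (0.230 ± 0.0495). In that order, MAPK9 and MAPK14, and MAPK14 and MAPK11, overlapped over the 6 libraries, and the other neighbours did not. Per kilobase of coding length, MAPK9 (57.5) and MAPKAPK2 (59.2) were next to MAP2K3 (99.0) in control cells and overlapped each other. MAPK14 (48.7) came before MAPKAPK3 (38.7) and MAPK12 (38.9), which overlapped, and MAPK11 (16.5) stood next to last, overlapping MAP2K6 (20.8).

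**Figure D3:**
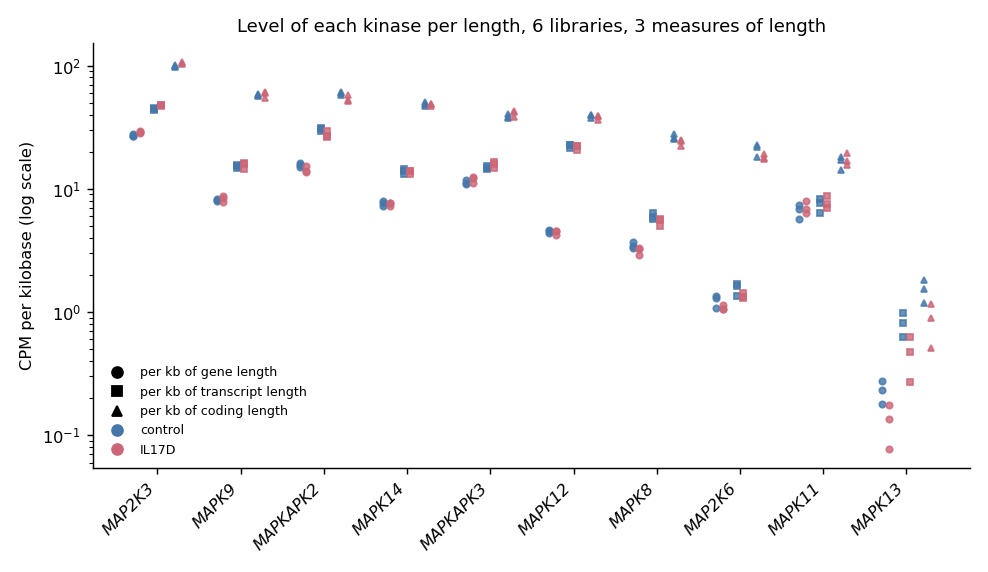
CPM per kilobase (vertical axis, log scale) of each kinase in each of 6 libraries, by 3 measures of length: deposited gene length (circles), length of the main transcript (squares) and its coding length (triangles), with control libraries in blue and IL17D libraries in red. MAP2K3 is highest and MAPK13 lowest by each measure, while MAPK12 and MAPK11 change places between gene length and the other measures.

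Within a family, the share of each paralogue was taken as its reads per kilobase of gene length over the sum for the family in the same library, which does not depend on how libraries are scaled to each other. By gene length, MAPK14 and MAPK11 held most of the p38 family. The share of MAPK14 was 40.1% ± 2.02 in control cells and 39.5% ± 2.38 in IL17D cells (SD, n = 3 each). MAPK11 held 34.9% ± 3.55 and 36.7% ± 2.97, MAPK12 23.8% ± 1.45 and 23.1% ± 0.918, and MAPK13 1.21% ± 0.247 and 0.680% ± 0.266. In each of the 4 shares the groups overlapped, and p was 0.7, 0.5, 0.6 and 0.2 for MAPK14, MAPK11, MAPK12 and MAPK13 in two-sided exact permutation tests over libraries. The MAPK13 groups lay apart by the other measures, with differences of -0.614 points by raw counts, -0.611 by coding length and -0.773 by transcript length, each with p = 0.1 from the exact permutation test, the smallest value possible here. Per kilobase of coding length the family read differently, with 46.1% for MAPK14, 36.8% for MAPK12, 15.6% for MAPK11 and 1.43% for MAPK13 in control cells. By the length of the main transcript MAPK12 came first, with 50.2%, before MAPK14 with 31.3%, MAPK11 with 16.7% and MAPK13 with 1.82%. The order of MAPK14, MAPK12 and MAPK11 thus depends on the length chosen, and MAPK13 is last by each.

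The other families have a pair of members each. MKK3 made up 95.6% ± 0.563 of the MKK3/6 pair in control cells and 96.4% ± 0.161 in IL17D cells (SD, n = 3 each; p = 0.2 from the exact permutation test). By coding length its share was 82.7% in control cells, since the annotated exons of MAP2K6 add up to far more than its coding part. By the length of the main transcript, which is 13400 bases for MAP2K6, the share of MKK3 was 96.65% in control cells.

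MK2 made up 57.9%, 58.9% and 57.4% of the MK2/3 pair in control replicates 1, 2 and 3 and 55.1%, 52.4% and 55.6% in the IL17D replicates. All 3 IL17D libraries lay below all 3 control libraries, by 3.68 percentage points on average (58.1% ± 0.760 and 54.4% ± 1.70, SD, n = 3 each). JNK1 made up 29.5%, 30.6% and 29.4% of the JNK pair in control cells and 27.3%, 27.4% and 28.1% in IL17D cells. These groups did not overlap either, and the IL17D mean was lower by 2.30 points (29.9% ± 0.673 and 27.6% ± 0.418, SD, n = 3 each). In both pairs p was 0.1 from the two-sided exact permutation test, the smallest value that 3 libraries against 3 allow, and 0.35 after adjustment over the 7 shares tested. The direction was the same by gene length, coding length, transcript length and raw counts. In a pair the length used cannot change the order of the libraries, so this is not a further check.

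**Figure D4:**
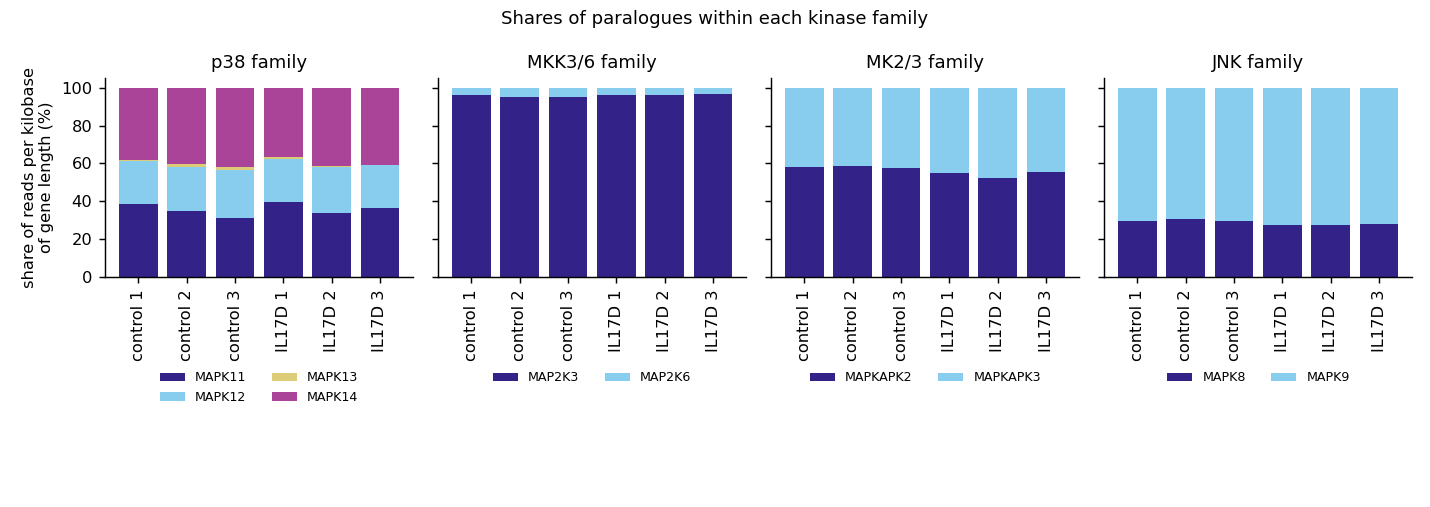
Share of each paralogue in the reads per kilobase of gene length of its family (vertical axis, percent, stacked to 100), 1 bar for each of the 6 libraries. The MK2 share is 57.4% to 58.9% in control and 52.4% to 55.6% in IL17D libraries, the JNK1 share 29.4% to 30.6% and 27.3% to 28.1%, and MAPK13 is a thin band of the p38 family throughout.

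The summed level of each family was also taken. The 4 p38 genes summed to 114.7 ± 3.20 CPM for control and 113.1 ± 2.22 CPM for IL17D cells (SD, n = 3 each, here and for the next pairs), the MKK3/6 pair to 123.5 ± 1.19 and 127.3 ± 1.96 CPM, the MK2/3 pair to 109.7 ± 2.997 and 106.6 ± 5.07 CPM, and the JNK pair to 106.5 ± 3.33 and 104.8 ± 6.19 CPM. In each family the ratio of the group means lay between 0.972 and 1.03. These sums are a description, with no test.

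The rest of the pathway was followed in 77 further genes, of which 69 passed the filter on low counts. Of these 69, 2 passed the edgeR test as higher and 1 as lower, against 1.58% of all tested genes, and the groups did not overlap for 16, against 15.8% of all tested genes. Their median log2 fold change was 0.04. None of the 22 tested MAP3Ks and adaptors, which stand at the head of the cascade, none of the 3 other MAP2K and MAPK genes, none of the 6 scaffolds, which hold the kinases together, and none of the 5 other kinases downstream of p38 was called. MAP2K4 and MAP2K7, the MAP2Ks of JNK, had adjusted p-values of 0.977 and 0.702 from edgeR's quasi-likelihood test. The 11 tested transcription factor substrates and the 5 RNA-binding and other substrates held no call either. For 3 of the 11 transcription factor substrates the groups did not overlap, against 15.8% of all tested genes. Of these 3, JUN was higher in IL17D cells. DDIT3 and JUND were lower (log2 fold change -0.28 and -0.03, edgeR adjusted p = 0.430 and 0.848). JUN, the substrate that gave JNK its name, had 50.6, 56.2 and 52.3 CPM in control cells and 57.3, 60.8 and 61.9 CPM in IL17D cells (edgeR adjusted p = 0.149).

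Of the 7 tested phosphatases of p38 and JNK, 1 passed the test, where 1.58% of all genes did. The groups did not overlap for 3 of the 7, where this was so for 15.8% of all genes. Of these 3, DUSP1 and DUSP16 were higher in IL17D cells and DUSP10 was lower (log2 fold change 0.15, 0.14 and -0.17). The edgeR adjusted p was 0.254 for DUSP16 and 0.821 for DUSP10. DUSP1 (MKP-1) is an immediate early gene whose product removes both activation loop phosphates. It had 152.4, 161.1 and 162.6 CPM in control replicates 1, 2 and 3 and 181.1, 172.3 and 175.1 CPM in the IL17D replicates, and the groups did not overlap. It rose with a log2 fold change of 0.15 (SE 0.0405, edgeR adjusted p = 0.0461). The call is close to the threshold, and the adjusted p was 0.0649 in DESeq2's Wald test. In edgeR's test it was 0.231 and 0.0925 without control replicates 1 and 2, and 0.267, 0.0570 and 0.144 without IL17D replicates 1, 2 and 3.

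Of the 12 AU-rich mRNAs that p38 and MK2 are known to stabilize, 9 were tested and 1 passed, against 1.58% of all genes. The groups did not overlap for 5 of the 9, against 15.8% of all genes. Of these 5, PTGS2, CXCL2, PLAU and PLAUR were higher in IL17D cells and CXCL3 was lower (log2 fold change -0.11). Only PTGS2 passed the test. The edgeR adjusted p was 0.753 for CXCL2, 0.643 for PLAU, 0.320 for PLAUR and 0.776 for CXCL3. Among the 9, 7 had a log2 fold change above 0 and 2 below it. Over all tested genes, 7858 were higher and 7896 lower. PTGS2, which encodes the inducible cyclooxygenase, had 28.6, 27.6 and 27.6 CPM in control cells and 31.4, 37.1 and 33.9 CPM in IL17D cells. All IL17D libraries lay above all control libraries. It rose with a log2 fold change of 0.29 (SE 0.0769, edgeR adjusted p = 0.0420). The adjusted p was 0.0988 in DESeq2's Wald test and 0.0513 in limma voom. In edgeR's test it was 0.0823, 0.129 and 0.0861 without control replicates 1, 2 and 3, and 0.268 and 0.134 without IL17D replicates 2 and 3. CXCL8, a neutrophil chemokine whose groups overlapped, had a log2 fold change of 0.24 (edgeR adjusted p = 0.225). CSF2, IL6 and TNF, further cytokine mRNAs of this kind, had 0 to 3 counts in any library and were not tested.

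By RT-PCR the study reported more CCL3, CCL4 and CSF1 mRNA in A549 cells with IL17D than in control cells. A p38 inhibitor lowered the 3 mRNAs in the cells with IL17D. The study also reported more CCL3 and CCL4 protein in the A549 supernatant by ELISA, and opposite mRNA changes on IL17D knockdown in H1155 cells. In the sequenced libraries CCL3 and CCL4 had 0 counts in all 6, which allows up to 0.182 to 0.21 CPM in a library. CSF1, the growth factor of macrophages, was the only one of the 3 that was tested. It had 29.6, 36.3 and 32.2 CPM in control cells and 26.1, 23.2 and 25.8 CPM in IL17D cells, and the groups did not overlap. CSF1 fell by 0.38 on the log2 scale (SE 0.0832, edgeR adjusted p = 0.00705), whereas the RT-PCR of the study gave a rise. Leaving out replicate 2 of either group gave an edgeR adjusted p of 0.109 (control) and 0.0596 (IL17D).

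**Figure D5:**
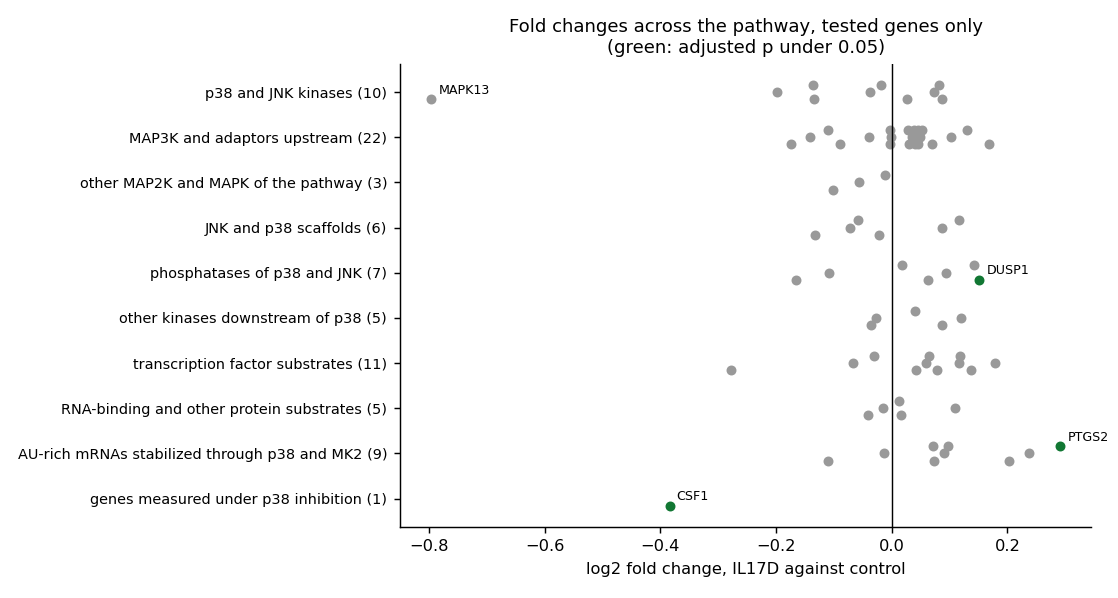
Log2 fold change of IL17D against control (horizontal axis) for every tested gene of the pathway, 1 point per gene, grouped by role, with the number of tested genes in parentheses and a small vertical offset between points of a row. Called genes, with an edgeR adjusted p under 0.05, are green, and 3 genes outside the kinases are so (DUSP1, PTGS2 and CSF1), and MAPK13, at -0.80, is the kinase farthest from 0.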

How the data were processed

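The authors deposited 1 table with the raw count of reads per gene in 6 libraries and a gene length, without normalization. The submitters' processing notes name Bowtie2 and hg38 without saying which step used them; the counting tool is not given in the sources used here. No column of per-sample values was left out (0), and no row lacked a gene. Gene coordinates are those of GENCODE release 29.

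Groups came from the sample titles. Genes were kept by edgeR's filterByExpr, scaled by TMM and compared with edgeR's quasi-likelihood test without covariates (R 4.3.3, edgeR 4.0.16), with Benjamini-Hochberg adjustment over all 15754 tested genes; p-values are two-sided. SE is the size of the log2 fold change over the root of the F statistic. Shares were compared by exact permutation tests (scipy 1.17.1). All kinases are named. Of the other pathway genes, those with an adjusted p under 0.05 and examples are named. The phosphatases, transcription factor substrates and AU-rich mRNAs whose groups did not overlap are also named. These non-overlapping genes (JUN among them), CXCL8, MAP2K4, MAP2K7 and MAPK10 were chosen for naming after their values were seen. For the kinase with the smallest p, the 5 most similar genes are named. The 10 kinases and the gene lists were chosen with earlier results of these data known. The fits were tested on simulated data with planted changes larger than those of most of the kinases. Whether changes as small as those of most kinases would be called was not tested.

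The alternatives were DESeq2's size factors, DESeq2 1.42.0, limma voom (3.58.1), no filter, a floor of 10 counts per library, a block for the replicate number, leaving out each library, and other lengths for the shares; coding and transcript length were chosen after seeing the data. RefSeq protein lengths were not used here. Deviations from the group means showed no pairing of libraries by replicate number.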

Additional observations from a re-analysis of the deposited data

How the results depend on the processing

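None of the 10 kinases had an adjusted p under 0.05 in any of the 12 alternatives. The number of kinases past the unadjusted p and fold thresholds was 0 with DESeq2's Wald test, 2 without a filter and 0 with at least 10 counts in every library, where MAPK13 is not tested, and 0 to 2 without 1 library. Of all genes, 145 to 267 had an adjusted p under 0.05 without 1 library, against 249 (155 without IL17D replicate 1 and 145 without IL17D replicate 3, with fewer samples). At the unadjusted thresholds DESeq2's Wald test gave 628 genes and the test without a filter 1446, against 946; the latter tested 32373 genes. Without 1 library, the log2 fold changes of MAPK11 (-0.0268 to 0.159), MAPK14 (-0.0498 to 0.0106) and MAPK9 (-0.0058 to 0.0741) changed sign, as did the differences in share of MAPK14 (-1.63 to 0.811 percentage points), MAPK12 (-1.24 to 0.128) and MAPK11 (-0.0161 to 3.53). The difference in the MAPK14 share was also of the other sign with raw counts (0.0759), coding length (0.0732) and transcript length (0.152), against -0.555 by gene length. The cause was not tested. Of 119 recomputed fold changes of the kinases, 114 kept their direction and 5 did not, and 64 of 71 recomputed share differences kept theirs. Some of the share differences could not have changed direction. The replicate block leaves the mean difference in share as it is. For the MK2 and JNK1 shares, whose groups did not overlap, neither length nor leaving out 1 library can reverse the direction. DESeq2's size factors put the median log2 fold change of all genes at 0.00109, against -0.00044.

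With the replicate number as a block, 272 genes had an adjusted p under 0.05 and 0 of the kinases. The deviations of same-numbered libraries from their group means correlated at 0.00997, -0.0119 and -0.0151, and no control library correlated best with its own number. These values show no pairing by number. With so few libraries per group, they cannot tell whether same-numbered libraries were handled together. The block changed no call of a kinase, of DUSP1, of PTGS2 or of CSF1.

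The depth limits the scarce genes most: MAPK13 rests on 8 to 29 counts per library.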
